A study of Homo sapiens with 40 samples.

Results

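RNA of SLC25A12 knockout cells carrying a vector (KO-vector cells, labelled sgSLC25A12 vector) was compared with RNA of wild-type cells carrying the vector (WT-vector cells) while both were under antimycin A. The comparison uses 8 of the 40 libraries of the series, 4 of each line, and takes each library's line and treatment from its label. All cells were HEK293T, an established human embryonic kidney line, and both groups had received 40 nM antimycin A for 6 hours. The same 2 lines in vehicle, again with 4 libraries each, show which differences were present without the drug. The other 24 libraries are labelled as knockout cells given back SLC25A12-WT, SLC25A12-F137S, or F137S together with dMTS-DELE1. They enter the shared estimate of the spread and are named only where their values are given. The libraries labelled as knockout with SLC25A12-WT go against that label, since they held 29.9 ± 1.31 CPM (counts scaled to a common library total) of SLC25A12 under antimycin and 38.9 ± 0.330 in vehicle (SD, n = 4 each), the WT-vector levels, and none of the excess of the other 2 given-back lines. Without them 7975 genes were called under antimycin, against 8034 with them, 7977 against 8080 in vehicle, and 243 against 262 by the interaction explained below. The labels call the libraries biological replicates without telling whether each is a culture of its own, so the p-values measure the spread between these libraries, which may be technical. They also do not say whether the knockout is 1 clone or a pool of edited cells.

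SLC25A12 encodes a carrier of the inner mitochondrial membrane that exports aspartate in exchange for glutamate and serves the malate-aspartate shuttle. Antimycin A blocks respiratory complex III. Stressed mitochondria signal through the protease OMA1 and the protein DELE1, which reaches the cytosol and activates the kinase HRI, encoded by EIF2AK1. HRI phosphorylates the translation factor eIF2, general translation slows, and the transcription factor ATF4 is made and turns on genes of amino acid synthesis and transport. This program is the integrated stress response (ISR). The series' title concerns a role of SLC25A12 in mitochondrial stress signalling apart from transport, and the comparison asks how transcripts of stressed cells differ with and without the gene.

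SLC25A12 itself (chromosome 2, 171783405 to 171894244 in GRCh38) stood at 2.39, 3.00, 2.66 and 2.97 CPM in the 4 KO-vector libraries under antimycin. The 4 WT-vector libraries held 32.4, 28.6, 31.4 and 30.1 CPM. The groups were far apart, at 11.1-fold, with a log2 fold change (KO minus WT) of -3.47 ± 0.05 (standard error, n = 4 and 4, adjusted p = 3.85e-61). In vehicle the means were 3.08 ± 0.231 CPM (SD, n = 4) in KO-vector and 38.7 ± 1.82 in WT-vector cells. Where in the gene the guide cuts is not told by the labels, and the counts do not tell intact from edited transcripts.

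Library totals lay between 31901982 and 31965438 counts in the KO-vector and between 30871191 and 31125600 in the WT-vector antimycin libraries, so the totals did not overlap. Libraries of a group correlated at 0.992 to 0.993 on the log2 CPM scale over genes, and libraries of the 2 groups at 0.983 to 0.984. Of 9 markers chosen for HEK293 cells, 1 stayed under 1 CPM in all 8 libraries, and their sum was 695 to 707 CPM in KO-vector and 865 to 872 in WT-vector cells. NEFM, a neurofilament gene in that list, made up most of the gap. By the test given below, 3 of the 9 were lower and 3 higher in KO-vector cells, with a median log2 fold change of 0.021. The higher ones were ENO2 (45.1 against 26.1 CPM), CDH2 (70.9 against 54.1) and NES (13.8 against 11). The kidney marker UMOD had no counts in the 8 libraries, and 7 of 10 kidney markers stayed under 1 CPM. PODXL, a surface protein of podocytes and of many cultured cells, carried most of that list's sum of 55.4 to 60.1 CPM in KO-vector and 50.7 to 53.6 in WT-vector cells. In the summed levels, fibroblast markers held 17 to 20.8 against 21 to 23.7 CPM, immune markers 5.64 to 8.15 against 4.85 to 6.03, other epithelial markers 10.7 to 12.9 against 9.56 to 11.8, and endothelial markers 1.05 to 1.52 against 0.713 to 1.26. The part of other cells in the results below was not tested. In such bulk libraries fewer cells with a transcript and less of it per cell cannot be told apart.

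The 2 lines differed under antimycin in a large share of their transcripts, mostly by small amounts. Of 16739 tested genes, 8034 (48.0%) passed an adjusted p of 0.05 in edgeR's quasi-likelihood test, of which 3938 (23.5% of those tested) were higher and 4096 (24.5%) lower in KO-vector cells. A gene is called higher, lower or changed here only where it passed that test. The shares of 23.5% higher and 24.5% lower are the background for the counts of list members below. The median size of a called change was 0.26 on the log2 scale, and 601 called genes changed by at least 2-fold. In 7147 genes (42.7%) the 4 KO-vector and 4 WT-vector libraries did not overlap. In vehicle the same lines differed in 8080 genes (48.3%), with 3803 higher (22.7%) and 4277 lower (25.6%).

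Most of these differences did not need the drug. Of the calls under antimycin, 6280 had the same direction in vehicle, which is 78.2% of the antimycin and 77.7% of the vehicle calls. The direct test of whether a difference between the lines changed with antimycin (the interaction) called 262 genes (1.57%), 140 of them (0.836%) more positive and 122 (0.729%) more negative under antimycin. The share of more positive calls was 53.4% here and 42.2% with DESeq2 size factors, which gave 258 calls. Leaving out single libraries left between 193 and 234 calls, with 77 to 121 more positive and 109 to 138 more negative.

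**Figure D1:**
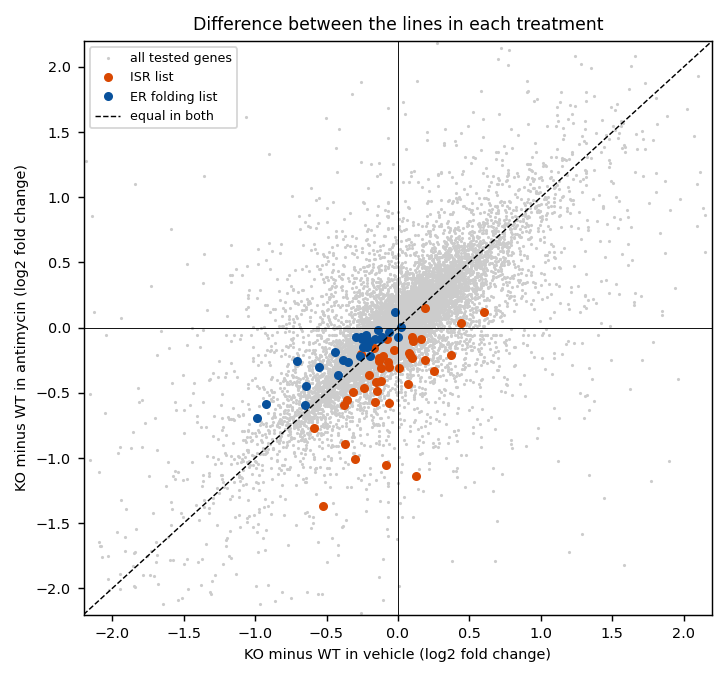
Each point is a gene, with the log2 fold change of KO against WT in vehicle on the horizontal and under antimycin on the vertical axis, both cut at 2.2, which leaves out 171 genes. Genes of the ISR list (orange) lie mostly below the line of equal differences, with 24 of 43 called more negative, and genes of endoplasmic reticulum folding (blue) above it, with 11 of 29 called more positive.

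The genes of the ISR stood lower in KO-vector than in WT-vector cells under antimycin. Of 43 ISR genes tested, 36 were lower, 2 higher and 5 did not pass, with a median log2 fold change of -0.31 against -0.0014 over all tested genes. In vehicle 22 were lower and 9 higher, with a median of -0.10. The interaction called 24 of the 43 as more negative under antimycin and 0 as more positive. The whole list was chosen with earlier results of these data known, and DDR2, FUT1 and 1 other were taken from those results. Without these 3, an alternative added after seeing the data, 34 of 40 were lower and 23 had a more negative interaction. FGF21, a stress hormone, had no counts in the 8 libraries and is among the 5 that did not pass.

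Promoters of 3 ISR genes are shown whose window held the letters TGATGNAA, the core of sites that ATF4 binds together with C/EBP partners. The windows are the 250 bases before the RefSeq start in GRCh38.p14, 5′ to 3′ on the gene's strand, with the match in capitals (TTGCATCA is a match on the other strand).
CHAC1 (chr15:40953221-40953470, plus strand): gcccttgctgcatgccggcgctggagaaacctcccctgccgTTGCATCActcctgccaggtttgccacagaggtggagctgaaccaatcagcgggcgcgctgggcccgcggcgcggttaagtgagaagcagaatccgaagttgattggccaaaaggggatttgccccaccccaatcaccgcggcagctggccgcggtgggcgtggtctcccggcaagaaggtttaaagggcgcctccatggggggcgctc
ASNS (chr7:97872409-97872658, minus strand): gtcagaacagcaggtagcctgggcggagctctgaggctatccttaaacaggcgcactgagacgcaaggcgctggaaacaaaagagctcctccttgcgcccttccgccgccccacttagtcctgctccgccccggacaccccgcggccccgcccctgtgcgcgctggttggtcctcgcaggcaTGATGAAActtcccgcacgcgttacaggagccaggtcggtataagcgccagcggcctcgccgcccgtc
ATF3 (chr1:212565157-212565406, plus strand): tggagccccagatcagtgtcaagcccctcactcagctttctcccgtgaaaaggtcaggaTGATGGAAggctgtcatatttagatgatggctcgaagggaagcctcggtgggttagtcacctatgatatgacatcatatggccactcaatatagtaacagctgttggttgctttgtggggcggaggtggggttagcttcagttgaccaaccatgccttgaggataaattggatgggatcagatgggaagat
Both strands were searched. TGATGNAA was present in 5 of 36 ISR genes with a window (13.9%), in 1.47% of 12411 tested genes and in 3.19% of all 27305 windows of the table. Among the ISR genes that were lower under antimycin it was present in 3 of 30 (10%). The match began 209 bases before the start in CHAC1, 68 in ASNS and 191 in ATF3. The other matches, in FUT1 and FGF21, are the same site, in windows that overlap each other on opposite strands, and it is counted for both. Neither of these genes passed the test under antimycin. Of the 102 genes with a more negative interaction and a window, 5 (4.9%) held it. A match describes the letters and is no evidence of binding in these cells.

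CHAC1, which degrades glutathione and is a sensitive ATF4 target, stood at 7.53, 7.48, 7.21 and 8.98 CPM in KO-vector cells and at 17.9, 18.5, 15.4 and 16.8 CPM in WT-vector cells under antimycin. Every KO library was lower than every WT library, at a log2 fold change of -1.14 ± 0.10 (adjusted p = 2.61e-14). In vehicle CHAC1 was near 2 CPM in both lines, at 2.07 ± 0.324 and 1.90 ± 0.437, and did not pass (0.13, adjusted p = 0.517). The interaction was -1.26 ± 0.18 (adjusted p = 2.33e-06).

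ATF4, the transcription factor at the head of the program, stood at 666, 639, 675 and 683 CPM in KO-vector and 768, 764, 772 and 751 CPM in WT-vector cells. The KO-vector level was lower by a small amount with no overlap (-0.20 ± 0.02, adjusted p = 9.81e-17). In vehicle ATF4 was higher in KO-vector cells (634 ± 4.67 against 600 ± 5.26 CPM, 0.08, adjusted p = 7.05e-05), and the interaction was -0.28 ± 0.02 (adjusted p = 2.02e-14). These are levels of mRNA, whereas the ISR raises ATF4 mainly through its translation.

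Most other transcription factors of the program named here were lower as well. DDIT3, which encodes the factor CHOP, held 15.9, 17.5, 18.7 and 19.4 CPM in KO-vector and 24.2, 25.1, 25.7 and 23.6 CPM in WT-vector libraries. It was lower in KO-vector cells (-0.46 ± 0.06), also in vehicle (-0.24), and its interaction did not pass (-0.23 ± 0.09, adjusted p = 0.284). ATF3, a stress-induced factor of the same family, held 53.7 to 58.6 CPM in KO-vector and 82.5 to 89.5 CPM in WT-vector libraries (-0.59 ± 0.04). It was lower in vehicle as well (-0.38), with an interaction of -0.22 ± 0.06 (adjusted p = 0.0355). NUPR1, a small stress protein of the nucleus, stood at 2.19 ± 0.568 against 5.65 ± 0.391 CPM (-1.36 ± 0.15). NUPR1 was also lower in vehicle (-0.52), with an interaction of -0.84 ± 0.25 that did not pass (adjusted p = 0.0835). TRIB3, a pseudokinase that restrains ATF4 and AKT, was at 25 ± 1.24 against 30.8 ± 1.53 CPM (-0.30 ± 0.05). It did not pass in vehicle (-0.06), nor did its interaction (-0.24 ± 0.07, adjusted p = 0.0574). ATF5 was 1 of the 2 ISR genes that were higher in KO-vector cells, at 21.2 ± 0.748 against 19.1 ± 0.867 CPM (0.15 ± 0.06, adjusted p = 0.0175), and its call was lost when any 1 of 4 libraries (KO-vector 2 or 3, WT-vector 1 or 4) was left out, with log2 fold changes of 0.12 to 0.14.

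Several enzymes of amino acid synthesis were lower in KO-vector cells, by amounts from small to nearly 2-fold. ASNS, which makes asparagine, stood at 3.47, 3.34, 3.31 and 3.72 CPM in KO-vector and at 6.50, 6.56, 5.76 and 6.87 CPM in WT-vector libraries. The groups did not overlap (-0.89 ± 0.13). ASNS was also lower in vehicle (-0.37), and its interaction did not pass (-0.52 ± 0.20, adjusted p = 0.23). CTH, which makes cysteine from cystathionine, held 45.8 to 50.2 CPM in KO-vector and 68.7 to 72.7 CPM in WT-vector libraries (-0.58 ± 0.04). Its 2 lines did not differ past the threshold in vehicle (33.2 ± 2.74 against 34.7 ± 0.792 CPM, adjusted p = 0.231), and the interaction was -0.52 ± 0.06. PSAT1 and PSPH, enzymes of serine synthesis, stood at 379 ± 2.92 against 502 ± 5.56 CPM (-0.41 ± 0.02) and 57.3 ± 1.73 against 67.3 ± 1.09 CPM (-0.23 ± 0.03). PHGDH, the entry enzyme of that route, differed least (485 ± 7.16 against 511 ± 11.7 CPM, -0.07 ± 0.02). ALDH1L2, a mitochondrial folate enzyme (-0.77 ± 0.03), and PCK2, mitochondrial phosphoenolpyruvate carboxykinase (-0.57 ± 0.04), were lower as well. In vehicle ALDH1L2 and PCK2 stood at -0.59 and -0.16, and PSAT1, PSPH and PHGDH at -0.12, 0.10 and 0.10. Of 23 genes that make serine, proline and folate-bound carbon units, 15 were lower and 2 higher, with a median of -0.17, and 7 had a more negative interaction.

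SLC6A9, a glycine transporter, held 15.6, 16.5, 17.2 and 20 CPM in KO-vector and 34.5, 35.1, 36.0 and 33.9 CPM in WT-vector libraries. The groups were apart by 2.01-fold (-1.01 ± 0.06), against -0.30 in vehicle, with an interaction of -0.71 ± 0.09 (adjusted p = 5.05e-09). Of 20 amino acid transporters, 10 were lower and 4 higher, with a median of -0.067, and 9 had a more negative interaction. All tested genes gave 24.5% lower, 23.5% higher and 0.729% with a more negative interaction. SLC43A1 (-0.32 ± 0.05) and SLC7A5 (-0.26 ± 0.03), transporters of large neutral amino acids, and SLC7A1, a transporter of cationic ones (-0.30 ± 0.02), were lower. SLC38A1 (-0.25 ± 0.02) and SLC1A5 (-0.21 ± 0.02), which carry glutamine, were also lower, and the interaction of each of these 5 passed. SLC1A4, which carries alanine and serine, was higher with overlap (29.0 ± 1.23 against 26.5 ± 2.17 CPM, 0.13 ± 0.05, adjusted p = 0.0167) and higher by more in vehicle (0.43). Its call under antimycin was lost without KO-vector library 1 or 2 or WT-vector library 2 or 4 (0.07 to 0.12).

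SLC7A11, the cystine importer and an ATF4 and NRF2 target, was the other ISR gene that was higher in KO-vector cells. Its libraries held 62.5, 58.5, 63.9 and 65.0 CPM in KO-vector and 57.7, 54.5, 58.7 and 58.4 CPM in WT-vector cells under antimycin. These ranges overlapped, at 0.12 ± 0.04 (adjusted p = 0.0022). In vehicle the gap was wider (92.2 ± 3.56 against 60.7 ± 1.04 CPM, 0.60), and the interaction was -0.48 ± 0.05. SESN2, which restrains mTORC1, showed the same order, with 0.03 ± 0.03 under antimycin (adjusted p = 0.43), 0.44 in vehicle and an interaction of -0.41 ± 0.05.

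Several stress genes changed sides between the treatments. In all, 25 genes were called in opposite directions, and the interaction was called in all 25. DDIT4, which restrains mTORC1, held 84.8 to 90.2 CPM in KO-vector and 98.5 to 106 CPM in WT-vector libraries under antimycin (-0.25 ± 0.04), and was higher in KO-vector cells in vehicle (56.1 ± 3.16 against 49.2 ± 1.86 CPM, 0.19). ULBP1, a stress ligand of the NKG2D receptor, was at 7.77 to 8.22 against 8.79 to 11.5 CPM under antimycin (-0.34 ± 0.10) and at 0.54 in vehicle. BBC3, which encodes the death protein PUMA, was at 8.30 to 10.3 against 11.5 to 13 CPM (-0.38 ± 0.09) and at 0.22 in vehicle. JDP2, a partner of JUN, stood at -0.33 ± 0.09 and 0.25. SLC3A2, the shared chain of SLC7A5 and SLC7A11, stood at -0.09 ± 0.02 and 0.16. HOXA13 went the other way, with 24.2 to 26.9 against 20.6 to 22.4 CPM under antimycin (0.26 ± 0.05) and -0.13 in vehicle.

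**Figure D2:**
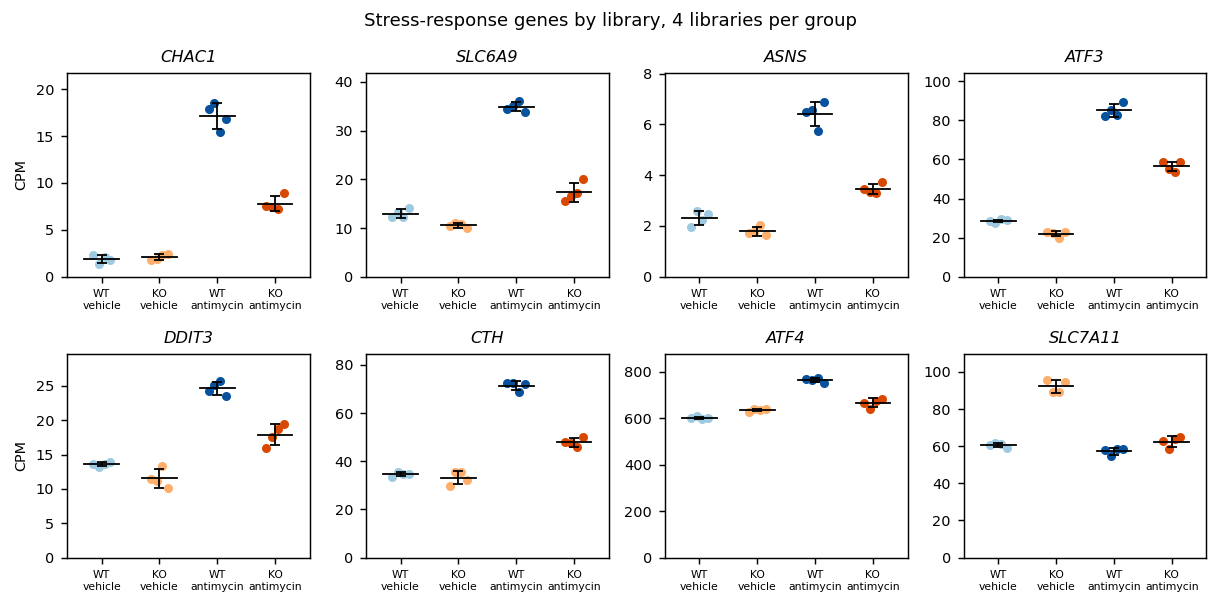
CPM of 8 stress-response genes in each library of the 4 groups on linear axes from 0. Points are libraries, the line is the mean and the bar the SD (n = 4). For 7 of the 8 genes the antimycin KO-vector libraries lie below all antimycin WT-vector libraries, and for SLC7A11 the 2 groups overlap.

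The secreted hormones of the ISR were scarce. GDF15 had 10 counts over the 4 KO-vector and 69 over the 4 WT-vector libraries, or 0.0774 ± 0.0593 against 0.557 ± 0.0727 CPM, and was lower (-2.78 ± 0.46). It lies on the short arm of chromosome 19 and was lower in vehicle too (-3.1). Its interaction did not pass (0.32 ± 0.74, adjusted p = 0.919). ADM2, a peptide hormone, was lower (1.57 ± 0.362 against 3.26 ± 0.208 CPM, -1.05 ± 0.16) with an interaction of -0.97 ± 0.24 (adjusted p = 0.0156).

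Cytosolic tRNA synthetases, many of them ATF4 targets, were lower in 14 of 20 cases and higher in 2, with a median of -0.20, and 7 had a more negative interaction. GARS1 (-0.40 ± 0.02), AARS1 (-0.31 ± 0.02) and SARS1 (-0.29 ± 0.02), which charge tRNAs for glycine, alanine and serine, were lower, each with a more negative interaction. RARS1, for arginine (0.11 ± 0.02), and KARS1, for lysine (0.06 ± 0.02, adjusted p = 0.0148), were the 2 higher ones, and KARS1 lost its call when any 1 of 7 libraries was left out, all but WT-vector library 1 (0.03 to 0.05). FARSA, a phenylalanine synthetase subunit on the short arm of chromosome 19, had the largest difference (103 ± 1.74 against 186 ± 5.41 CPM, -0.86 ± 0.03), which was about the same in vehicle (-0.85). Of the 17 mitochondrial tRNA synthetases, 7 were lower and 5 higher, with 0 interactions called, where all tested genes gave 24.5% lower and 23.5% higher.

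The relay that leads from mitochondria to ATF4 differed at the RNA level by at most 0.29 in its called genes. The median size of a called change over all genes was 0.26. OMA1, the protease at its start, held 38.9, 40.4, 40.6 and 41.6 CPM in KO-vector and 49.6, 46.1, 48.3 and 53.5 CPM in WT-vector libraries. It was lower without overlap (-0.29 ± 0.04), as it was in vehicle (-0.38). DELE1 stood at 46.6 to 57.0 against 54.4 to 57.5 CPM, which overlapped (-0.13 ± 0.04, adjusted p = 0.0038). EIF2AK1 stood at 248 to 259 against 263 to 273 CPM (-0.08 ± 0.02, adjusted p = 0.00107). PPP1R15B, a phosphatase subunit that removes the mark from eIF2, was higher (281 ± 7.74 against 230 ± 4.60 CPM, 0.28 ± 0.02). EIF2AK3, another kinase of eIF2, was lower (-0.29 ± 0.05), as in vehicle (-0.28). Of 18 relay genes tested, 9 were lower and 2 higher, with 1 interaction called. Over all tested genes 24.5% were lower and 23.5% higher.

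Genes of protein folding in the endoplasmic reticulum (ER) were lower in KO-vector cells in both treatments, and the gap was narrower under antimycin. Of 29 ER genes, 22 were lower and 1 higher under antimycin, with a median of -0.11, against 26 lower and 0 higher in vehicle, with a median of -0.24. The interaction called 11 as more positive and 0 as more negative. Of 27 ER genes with a promoter window, 7 (25.9%) held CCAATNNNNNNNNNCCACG, the ER stress element, against 0.129% of tested genes and 0.0806% of all windows. The 7 are HSPA5, HSP90B1, CALR, CANX, CRELD2, XBP1 and ERO1B. HSPA5, CRELD2 and ERO1B had a more positive interaction, and HSP90B1, CALR, CANX and XBP1 had none that passed (adjusted p = 0.227, 0.301, 0.685 and 0.852). The windows of 2 of the 7, chosen for their interaction after the values were seen, are given with the same conventions as above.
HSPA5 (chr9:125241344-125241593, minus strand): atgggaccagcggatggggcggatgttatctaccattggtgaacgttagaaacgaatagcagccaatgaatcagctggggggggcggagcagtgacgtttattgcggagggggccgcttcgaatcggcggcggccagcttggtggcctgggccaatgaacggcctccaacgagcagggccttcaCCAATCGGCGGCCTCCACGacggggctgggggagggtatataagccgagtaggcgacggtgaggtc
CRELD2 (chr22:49918384-49918633, plus strand): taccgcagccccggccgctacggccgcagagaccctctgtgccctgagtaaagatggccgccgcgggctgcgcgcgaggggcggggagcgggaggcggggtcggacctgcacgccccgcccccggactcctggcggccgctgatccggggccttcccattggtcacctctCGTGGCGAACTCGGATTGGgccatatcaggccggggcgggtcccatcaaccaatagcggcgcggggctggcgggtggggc
The match began 66 bases before the start in HSPA5 and lay on the other strand, 80 bases before it, in CRELD2.

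HSPA5, the main chaperone of the ER (BiP), stood at 1044 ± 14.9 CPM in KO-vector and 1426 ± 27.6 CPM in WT-vector cells under antimycin. The libraries did not overlap (-0.45 ± 0.02). In vehicle the means were 953 ± 17.5 and 1491 ± 29.0 CPM (-0.65), and the interaction was 0.20 ± 0.03 (adjusted p = 5.59e-05). HERPUD1, which helps remove misfolded ER proteins, held 75.5 to 83.1 against 125 to 134 CPM (-0.69 ± 0.03), and -0.99 in vehicle. SDF2L1, a partner of BiP, was at 38.9 to 42.5 against 57.3 to 63.7 CPM (-0.58 ± 0.04), and -0.92 in vehicle. DNAJB9, a co-chaperone, was at 21.7 to 24.5 against 26.6 to 29.4 CPM (-0.26 ± 0.05), and -0.71 in vehicle. In all 4 genes the KO-vector libraries were below the WT-vector libraries in both treatments.

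CRELD2 (-0.30 ± 0.04 under antimycin, -0.55 in vehicle) and MANF (-0.19 ± 0.04 and -0.44), 2 secreted ER stress proteins, showed the same narrowing. HSP90B1, an ER chaperone (-0.36 ± 0.02 and -0.42), and XBP1, a transcription factor of the unfolded protein response (-0.22 ± 0.02 and -0.19), were lower without a called interaction. CALR, a lectin chaperone on the short arm of chromosome 19, was also lower in both treatments (-0.60 ± 0.02 and -0.65). EDEM1, which sends proteins to degradation, was the 1 ER gene that was higher (0.12 ± 0.03).

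Genes of the shuttle that SLC25A12 serves were mostly a little lower. Of 15 genes of the malate-aspartate and glycerol phosphate shuttles, SLC25A12 included, 11 were lower and 1 higher, with a median of -0.097. SLC25A13, the paralogous carrier, stood at 101 ± 2.42 against 108 ± 1.94 CPM (-0.10 ± 0.03, adjusted p = 0.00248). SLC25A11, which carries oxoglutarate and malate (-0.25 ± 0.03), MDH1 (-0.11 ± 0.02) and GOT2 (-0.12 ± 0.02), a malate dehydrogenase and an aspartate aminotransferase, were lower. GPD1, a glycerol phosphate dehydrogenase, was the 1 higher gene (1.72 ± 0.481 against 1.16 ± 0.388 CPM, 0.56 ± 0.23, adjusted p = 0.0362). Its call was lost without any 1 of 5 libraries, KO-vector 2 or 3 or WT-vector 1, 2 or 4 (0.35 to 0.56). LDHA, which reoxidises NADH in the cytosol, was lower (1072 ± 18.7 against 1350 ± 29.2 CPM, -0.33 ± 0.02). Of 15 genes of aspartate, asparagine and glutamate metabolism, 7 were lower and 1 higher. Among them GLUD1, glutamate dehydrogenase, was lower (-0.27 ± 0.02), ASRGL1, an asparaginase, was higher (0.41 ± 0.04), and GPT2, a mitochondrial alanine aminotransferase, was lower (-0.27 ± 0.03) against 0.06 in vehicle, with an interaction adjusted p of 1.11e-06.

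Glycolytic and hypoxia genes were lower in 15 of 30 cases and higher in 5, with a median of -0.15 and 0 interactions called. ALDOC, an aldolase, stood at 9.17 ± 0.560 against 20 ± 1.06 CPM (-1.13 ± 0.09), and NDRG1, a hypoxia-inducible gene, at 47.3 ± 2.05 against 92.4 ± 2.55 CPM (-0.97 ± 0.04). ARRDC4, which limits glucose uptake, was lower (-0.76 ± 0.04). ENO2, the neuronal enolase, was higher (45.1 ± 1.79 against 26.1 ± 0.324 CPM, 0.79 ± 0.04).

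Of 37 complex I subunits of the respiratory chain, 12 were lower and 8 higher, with a median of -0.013, and of 38 subunits of complexes II to V, 11 were lower and 8 higher. Over all tested genes 24.5% were lower and 23.5% higher, so these counts are near the background. The largest decreases in complex I were NDUFB7 (-0.57 ± 0.05), NDUFA7 (-0.47 ± 0.06), NDUFS7 (-0.46 ± 0.05) and NDUFA13 (-0.42 ± 0.05), all on the short arm of chromosome 19, together with NDUFB10 (-0.42 ± 0.04) on chromosome 16. NDUFA3, on the long arm, passed as higher on few counts (1.80 ± 2.94 against 0.274 ± 0.0678 CPM, 2.69 ± 0.99, adjusted p = 0.0239), and without KO-vector library 1 its value was 0.25 (adjusted p = 0.873). It lost its call also without WT-vector library 1 (2.65) or 3 (2.54). The same happened with only the compared groups fitted (2.69, adjusted p = 0.171) and with the replicate number as a block (2.06, adjusted p = 0.262). NDUFA11, on the short arm, did not pass (0.08 ± 0.04, adjusted p = 0.0996). UQCRB and UQCR11, subunits of the complex that antimycin blocks, went opposite ways. UQCRB was higher (231 ± 1.28 against 169 ± 4.53 CPM, 0.45 ± 0.03), as it was in vehicle (0.42). UQCR11, on the short arm of chromosome 19, was lower without overlap (-0.37 ± 0.05), as it was in vehicle (-0.42). Neither gene had a called interaction. Mitochondrial chaperones and proteases were lower in 11 of 20 cases and higher in 4. CLPP (-0.67 ± 0.04) and LONP1 (-0.57 ± 0.03), 2 matrix proteases of the same arm, and TRAP1, a matrix chaperone of chromosome 16 (-0.29 ± 0.02), were lower. PARL, a protease of the inner membrane, was higher (0.25 ± 0.04).

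Of 24 genes of cholesterol synthesis and uptake, 8 were higher and 3 lower. INSIG1, which holds the sterol sensor in the ER, held 187 to 195 CPM in KO-vector and 308 to 328 CPM in WT-vector libraries (-0.74 ± 0.03). SREBF1, a transcription factor of lipid synthesis, was lower (-0.74 ± 0.05). The enzymes TM7SF2 (0.63 ± 0.06) and MSMO1 (0.36 ± 0.03) were higher. Of 22 NRF2 targets, 11 were higher and 6 lower, where all tested genes gave 23.5% higher and 24.5% lower. NQO1, a quinone reductase, held 77.2 to 81.5 against 39.1 to 43.1 CPM (0.97 ± 0.04). HMOX1, heme oxygenase (0.48 ± 0.04), and SQSTM1, an autophagy receptor (0.36 ± 0.02), were higher. Both were further apart in vehicle, at 0.72 for HMOX1 and 0.50 for SQSTM1. OSGIN1, an oxidative stress gene, passed (1.52 ± 0.297 against 1.02 ± 0.177 CPM, 0.58 ± 0.24, adjusted p = 0.0376), and lost its call without any 1 of 5 libraries, KO-vector 1, 2 or 3 or WT-vector 1 or 2 (0.46 to 0.59).

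**Figure D3:**
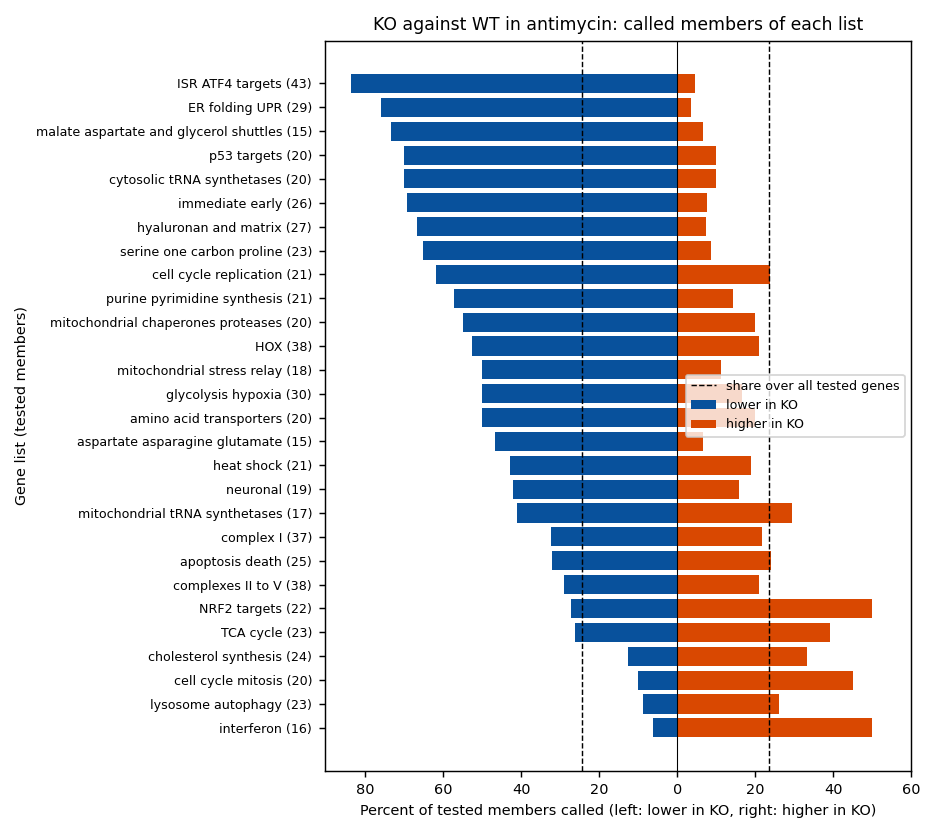
Share of tested members of each gene list called lower (blue, to the left) or higher (orange, to the right) in KO-vector cells under antimycin, with the number of tested members in brackets and dashed lines at the shares over all tested genes (24.5% and 23.5%). The ISR list has 36 of 43 members lower and the ER folding list 22 of 29.

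Immediate early genes, which answer growth factors and stress within minutes to hours, were lower in 18 of 26 cases and higher in 2, with a median of -0.42, against 19 lower and 2 higher in vehicle. JUN, a subunit of AP-1, stood at 296, 309, 302 and 290 CPM in KO-vector and 533, 520, 529 and 538 CPM in WT-vector libraries. The groups did not overlap (-0.82 ± 0.03), and the gap was smaller in vehicle (-0.57), with an interaction of -0.25 ± 0.04 (adjusted p = 0.000377). EGR1, a zinc finger factor (-1.03 ± 0.16), and JUND, another AP-1 subunit (-0.84 ± 0.09, on the short arm of chromosome 19), were lower. CCN2 and CCN1, secreted proteins under YAP control, were the 2 that were higher. CCN2 held 8.73 to 12 against 7.32 to 8.43 CPM (0.43 ± 0.10), and CCN1 stood at 27.9 ± 1.01 against 22.1 ± 2.16 CPM (0.34 ± 0.06), and both were further apart in vehicle (0.93 and 0.67).

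Targets of p53 were lower in 14 of 20 cases and higher in 2, with a median of -0.23. CDKN1A, which encodes the cell cycle inhibitor p21, was lower (12.2 ± 1.15 against 15.1 ± 0.674 CPM, -0.32 ± 0.07), as was BTG2, an antiproliferative gene (-0.35 ± 0.05). MDM2, which degrades p53 (0.27 ± 0.02), and TP53INP1, an autophagy and death gene (0.54 ± 0.08), were higher. HEK293T cells carry viral large T antigen, which binds p53.

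The 15 largest increases and the 15 largest decreases, among genes with a mean of at least 1 on the log2 CPM scale and no overlap between the groups, were each also called in vehicle, in the same direction. The plot of 8 genes by library shows levels of SLC25A12 and of cell adhesion, neuronal and matrix genes.

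**Figure D4:**
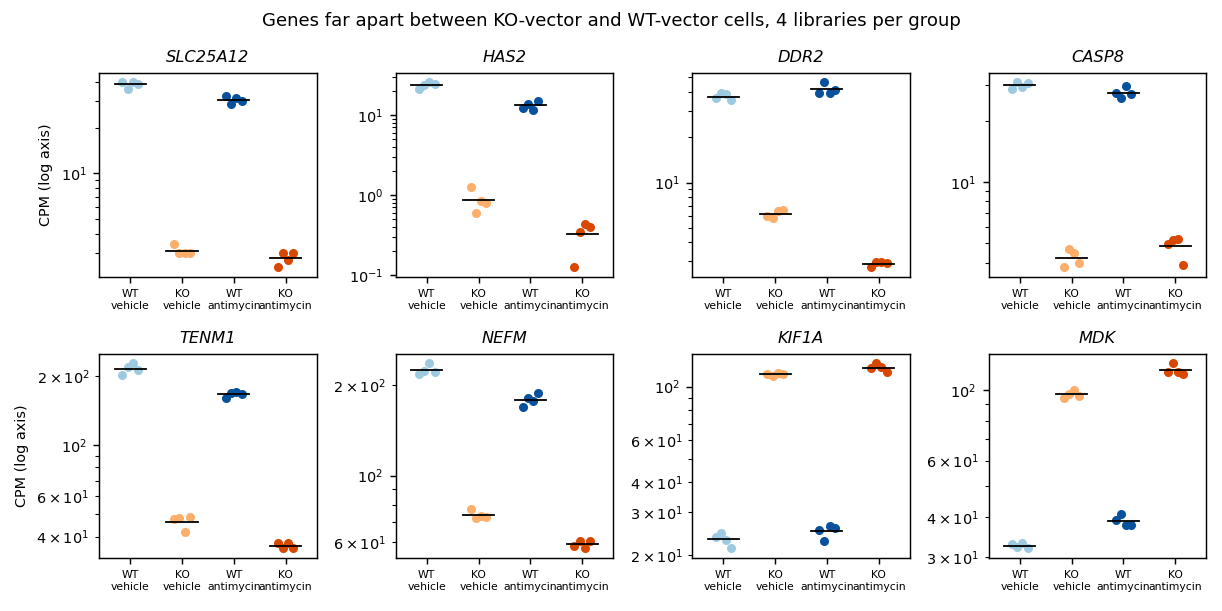
CPM on log axes of 8 genes, SLC25A12 among them, in each library of the 4 groups. Points are libraries and lines are means (n = 4). KO-vector and WT-vector libraries are apart in both treatments for all 8 genes.

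HAS2, which makes hyaluronan, was close to absent from KO-vector cells under antimycin, at 0.124, 0.340, 0.433 and 0.403 CPM against 12.4, 13.8, 11.6 and 15.1 CPM. The difference was 40.2-fold (-5.33 ± 0.25). In vehicle HAS2 stood at 0.876 ± 0.284 against 23.7 ± 1.94 CPM (-4.75). DDR2, a collagen receptor, held 2.73 to 2.97 against 39.4 to 46.1 CPM (-3.84 ± 0.08). Its interaction was -1.26 ± 0.10 (adjusted p = 1.75e-15). In vehicle KO-vector cells held 6.22 ± 0.380 CPM of DDR2 and WT-vector cells 37.2 ± 1.90. CASP8, the initiator caspase of death receptors, held 3.90 to 5.23 against 26.0 to 29.8 CPM (-2.52 ± 0.08, and -2.83 in vehicle). CFLAR, the caspase-8 inhibitor near it on chromosome 2, was higher (0.24 ± 0.04).

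Several neuronal genes differed widely. TENM1, a teneurin of neural cells, held 35.6 to 37.5 against 161 to 170 CPM (-2.19 ± 0.04), and NEFM 57.2 to 60.7 against 170 to 188 CPM (-1.60 ± 0.03). DPYSL3, a growth cone protein (-2.29 ± 0.17), STMN2, a stathmin of neurons (-3.00 ± 0.27), and NCAM1, an adhesion molecule (-0.66 ± 0.05), were lower. KIF1A, a kinesin of axonal transport, went the other way, with 119, 125, 121 and 115 CPM against 25.3, 22.8, 26.4 and 25.8 CPM (2.26 ± 0.04). MAP2, a dendritic microtubule protein, was higher too (1.34 ± 0.26). Of 19 neuronal genes tested, 8 were lower and 3 higher, against 24.5% and 23.5% of all tested genes.

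Of 27 matrix genes, 18 were lower and 2 higher, with a median of -0.22. TNC, a matrix glycoprotein (-2.01 ± 0.13), COL3A1, a fibrillar collagen (-2.03 ± 0.24), SPARC (-0.84 ± 0.06), VCAN, a hyaluronan-binding proteoglycan (-0.83 ± 0.05), and TIMP3, an inhibitor of matrix proteases (-0.81 ± 0.04), were lower. Of 7 fibroblast markers 4 were tested, and 2 were lower and 0 higher in KO-vector cells, with a median of -1.36. Those 2 were COL3A1 (0.542 against 2.22 CPM) and PDGFRB (0.0387 against 0.299). COL1A1, at 18.3 against 19 CPM, carried most of the list's sum, FAP was at 0 and DCN near 0 (0.0155 against 0.0323 CPM). The part of such cells in the matrix genes was not tested.

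On the higher side, DBIL5P, a pseudogene of the testis acyl-CoA binding family, had the largest difference. Its libraries held 84.2 to 89.8 CPM in KO-vector and 0.804 to 1.55 CPM in WT-vector cells under antimycin (75.8-fold, 6.24 ± 0.07). In vehicle KO-vector cells held 181 ± 1.33 CPM and WT-vector cells 1.66 ± 0.295, and the interaction did not pass (-0.52 ± 0.15, adjusted p = 0.0722). The labels do not tell how multi-mapped reads were counted, so counts at a pseudogene are uncertain. MDK, the growth factor midkine, held 112 to 121 against 37.7 to 40.9 CPM (1.57 ± 0.04), and JAG1, a Notch ligand, 23.5 to 24.7 against 8.08 to 8.56 CPM (1.55 ± 0.08). SPINT2, a protease inhibitor (1.54 ± 0.04), CD24, a surface glycoprotein (1.59 ± 0.13), and FGF13, which acts on sodium channels (1.93 ± 0.08), were higher. MKRN3, an imprinted gene (2.43 ± 0.13), TPTE, a phosphatase of the testis with close copies (2.53 ± 0.13), TRIM58 (1.83 ± 0.11), MPZL2 (1.88 ± 0.16), SYT17 (1.70 ± 0.19), EPHA10 (1.64 ± 0.12), RAB38 (1.55 ± 0.18) and CBFA2T3 (1.55 ± 0.16) complete the 15 largest increases.

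The remaining genes among the 15 largest decreases were AGAP11 (-2.48 ± 0.14), NAPRT, an enzyme of NAD synthesis that varied widely (1.07 ± 0.663 against 5.68 ± 1.79 CPM, -2.41 ± 0.49), DHRS2, a reductase (-2.36 ± 0.12), EDA2R, a receptor of the tumour necrosis factor family (-1.83 ± 0.10), WNK4, a kinase of ion transport (-1.76 ± 0.18), GPR50 (-1.76 ± 0.16) and CRTAC1 (-1.75 ± 0.19). HNRNPA3, an abundant RNA-binding protein, and ZC3H15, named after their values were seen, were lower at 295 ± 3.73 against 737 ± 16.3 CPM (-1.32 ± 0.02) and 56.6 ± 1.61 against 128 ± 2.83 CPM (-1.18 ± 0.03). HNRNPA3 lies on chromosome 2 at 177212794 to 177223959 and ZC3H15 at 186486260 to 186509361, both beyond SLC25A12.

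Genes around SLC25A12 were counted by their distance from it. Of 15 tested genes that start within 1 Mb, 8 were higher and 3 lower, with a median of 0.11, and of 63 within 5 Mb, 16 were higher and 22 lower, with a median of -0.028, where all tested genes gave 23.5% higher and 24.5% lower. DYNC1I2, a dynein chain and the nearest on 1 side, was higher (0.26 ± 0.03), HAT1, a histone acetyltransferase and the nearest on the other, did not pass (-0.01 ± 0.03, adjusted p = 0.794), and METAP1D, a mitochondrial aminopeptidase, was higher (0.18 ± 0.05). DLX1, a homeobox gene, was lower (11.8 ± 0.894 against 19.4 ± 0.686 CPM, -0.72 ± 0.06), and ITGA6, a laminin receptor, was higher (0.43 ± 0.05).

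Genes of the short arm of chromosome 19, taken as those starting below 25 Mb in GRCh38, were lower as a block. Of 480 tested, 76.2% were lower and 3.54% higher, with a median of -0.50 under antimycin and -0.50 in vehicle, and 2 had a called interaction. The rest of chromosome 19 had a median of 0.01 over 604 genes. The arm held 2.87% of the tested genes and 8.94% of the lower calls. Leaving these genes out of the lists, an alternative chosen after seeing the data, left 35 of 42 ISR genes and 21 of 28 ER genes lower. It left 8 lower of 32 complex I subunits in place of 12 of 37. Copy number was not measured, and its part in the block was not tested. Smaller shifts were present elsewhere under antimycin. Of 979 genes tested on chromosome 17, 37.1% were lower and 14.4% higher, with a median of -0.10. Of 1675 on chromosome 1, 15.8% were lower and 35.8% higher, with a median of 0.08. Genes of both chromosomes were kept in the lists, with SREBF1, AURKB and SLC25A11 of chromosome 17 among them.

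**Figure D5:**
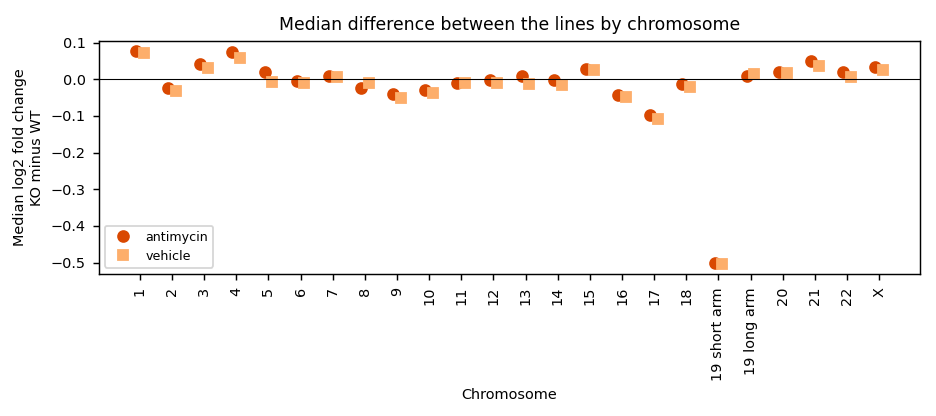
Median log2 fold change of KO against WT over the tested genes of each chromosome, under antimycin (circles) and in vehicle (squares), with the arms of chromosome 19 apart. The short arm stands at -0.50 in both treatments, and the other medians lie between -0.11 and 0.08.

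HOX genes, which keep a cell's position along the body axis, were lower in 20 of 38 cases and higher in 8, with a median of -0.24. The shares over all tested genes were 24.5% lower and 23.5% higher. HOXB2 (-1.21 ± 0.12), HOXB6 (-1.16 ± 0.08) and HOXC8 (-1.03 ± 0.08) were lower, and HOXA2 was higher (0.75 ± 0.17). Among genes of mitosis, 9 of 20 were higher and 2 lower, against 3 and 2 in vehicle. The interaction called only 2 of these 20 as more positive and 0 as more negative. AURKA, a kinase of the spindle poles, was higher under antimycin (81.6 ± 1.25 against 69.6 ± 1.47 CPM, 0.23 ± 0.03) and at 0.04 in vehicle, with an interaction of 0.19 ± 0.04 (adjusted p = 0.005). AURKB, its relative at the centromere, was lower (-0.34 ± 0.03). Of 21 replication and G1/S genes, 13 were lower and 5 higher, with CCND1, cyclin D1, lower (-0.39 ± 0.03) and CCNE2, a cyclin E, higher (0.69 ± 0.05).

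Outside the lists, the smallest interaction p belonged to ADAMTS1, a secreted matrix protease named after its values were seen, which was lower by more under antimycin (100.4 ± 3.12 against 187.5 ± 4.41 CPM, -0.90 ± 0.03) than in vehicle (-0.46). FOXO4, a transcription factor under AKT control, was lower by less under antimycin (18.9 ± 0.717 against 38.5 ± 1.77 CPM, -1.03 ± 0.05) than in vehicle (-1.61), with an interaction of 0.58 ± 0.07. MYB was higher under antimycin (0.64 ± 0.10) and at 0.11 in vehicle (adjusted p = 0.416), and DCHS1, a large cadherin, was higher by more under antimycin (0.91 ± 0.11 and 0.30). CRIP2, a LIM domain protein, was higher by less (0.37 ± 0.13 and 1.45), and its call under antimycin was lost without KO-vector library 2 (0.21) or WT-vector library 2 (0.28). H2BC21, a histone gene, was higher by less as well (0.83 ± 0.09 and 1.56). SLC39A7, a zinc transporter of the ER, did not pass under antimycin (0.29 ± 0.22, adjusted p = 0.308), was lower in vehicle (-1.04), and had an interaction of 1.33 ± 0.32. RGS20, a regulator of G proteins (0.07 ± 0.15), HDAC4, a histone deacetylase (-0.0005 ± 0.08), SHISA4 (0.24 ± 0.16) and the pseudogene TEKT4P2 (0.05 ± 0.13) did not pass under antimycin and were lower in vehicle, at -0.74, -0.46, -0.54 and -0.62 in that order. On the negative side PLPPR3, a phosphatase-related membrane protein, was lower under antimycin (-0.89 ± 0.15) and at -0.06 in vehicle. C17orf113 (-0.08 ± 0.10) and ASNSP1, a pseudogene of ASNS (-0.33 ± 0.14, adjusted p = 0.0528), did not pass under antimycin and were higher in vehicle (0.65 and 0.70).

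The levels of these genes in the other lines under antimycin are given as a description. Knockout cells with SLC25A12-F137S held 1910 ± 37.3 CPM of SLC25A12, and stood near KO-vector cells for HAS2 (0.385 ± 0.229 CPM), DDR2 (2.83 ± 0.284), CASP8 (4.51 ± 0.653), TENM1 (37.7 ± 2.34), KIF1A (122 ± 4.48) and DBIL5P (89.9 ± 4.34). In these cells CHAC1 was at 9.63 ± 0.981 CPM, HSPA5 at 1030 ± 10.6 and HERPUD1 at 81.9 ± 1.18. Knockout cells with F137S and dMTS-DELE1 held 4270 ± 56.9 CPM of SLC25A12, and stood nearer KO-vector than WT-vector cells for HAS2 (0.624 ± 0.134 CPM), DDR2 (8.07 ± 0.928), CASP8 (8.26 ± 0.644), TENM1 (35.6 ± 1.95), KIF1A (153 ± 7.28) and DBIL5P (69.4 ± 3.2). For other genes they did not: CHAC1 was at 24 ± 1.39 CPM and EDA2R at 14.7 ± 1.16, above both compared lines. HSPA5 in them was at 1090 ± 20 CPM and HERPUD1 at 127 ± 1.75. The libraries labelled as knockout with SLC25A12-WT held 29.9 ± 1.31 CPM of SLC25A12, the WT-vector level, and stood near WT-vector cells for HAS2 (14.6 ± 1.49 CPM), DDR2 (40.2 ± 2.23), CASP8 (26.3 ± 1.42), KIF1A (26.1 ± 0.997) and CHAC1 (18.7 ± 2.09). No test was made between these lines and the 2 compared here.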

How the data were processed

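Poly(A) RNA was made into libraries with random hexamers and read as paired 150-base reads on the T7 instrument, per the labels' protocols. The authors deposited whole-number read counts per gene symbol. HISAT2 2.1.0, featureCounts 2.0.6 and the build hg38 are named per the submitters' processing notes. The sources used here give no strand setting, annotation or treatment of multi-mapped reads. Symbols were matched to RefSeq GRCh38.p14 for position in 16065 of the 16739 tested genes.

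Genes kept by filterByExpr, out of 28278, were scaled by TMM and tested with edgeR 4.0.16 (R 4.3.3, limma 3.58.1), using a robust quasi-likelihood F test over all 40 libraries with 1 mean per group and Benjamini-Hochberg adjustment. Levels on the log2 CPM scale use a prior count of 2, and log2 fold changes are those of edgeR's fitted model. The scripts were tested on simulated data. Gene lists and members were chosen with earlier results of these data known. Named were the 15 largest called changes each way without overlap and with a mean log2 CPM of at least 1, the 10 largest interactions each way, the 10 largest of those called in opposite directions, up to 5 genes per list, 12 pathway genes in every case, and further list members as examples. Not all of these are printed, and some genes are not reported here. Alternatives were DESeq2 (1.42.0) size factors and Wald test, no filter, only the compared groups, a replicate block, a 2-fold minimum, halved counts, leaving out the libraries labelled as knockout with SLC25A12-WT, and leaving out each library.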

Additional observations from a re-analysis of the deposited data

Results flagged for a closer look

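A library that stood apart from the other 3 of its group was found in 35 of 672 groups of 4, which are the 168 named genes in KO-vector and WT-vector cells in both treatments (Dixon's ratio above its 95% critical value), and chance gives about 1 in 20. Each value is given against the nearest of the other 3. In KO-vector cells under antimycin the library stood low for FARSA in library 1 (100 CPM against 103), MYC in library 1 (51.3 CPM against 54.9), GLUD1 in library 2 (220 CPM against 228), NDUFB7 in library 3 (29.9 CPM against 32.3), NQO1 in library 4 (77.2 CPM against 81.1), CALR in library 4 (838 CPM against 859) and TRAP1 in library 4 (337 CPM against 343). In KO-vector cells under antimycin the library stood high for NDUFA3 in library 1 (6.2 CPM against 0.464) and JUND in library 2 (53.4 CPM against 45.6). In WT-vector cells under antimycin the library stood low for DHRS2 in library 1 (10.4 CPM against 12.2), CFLAR in library 1 (34.6 CPM against 37.1), CRIP2 in library 2 (3.59 CPM against 4.5), DDIT4 in library 3 (98.5 CPM against 105), BTG2 in library 3 (42.1 CPM against 44.7) and FARSA in library 4 (178 CPM against 188). In WT-vector cells under antimycin the library stood high for CBFA2T3 in library 2 (2.17 CPM against 1.22), AGAP11 in library 2 (10.1 CPM against 8.59), NCAM1 in library 2 (36.2 CPM against 32.8) and JUND in library 4 (92.3 CPM against 83).

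In KO-vector cells in vehicle the library stood low for SLC43A1 in library 1 (15.6 CPM against 17.5), TENM1 in library 3 (41.7 CPM against 47.5), ATF3 in library 3 (20 CPM against 22.3) and AARS1 in library 3 (226 CPM against 236). In KO-vector cells in vehicle the library stood high for SLC25A12 in library 1 (3.43 CPM against 2.99), NCAM1 in library 1 (24.8 CPM against 23.8), DELE1 in library 3 (46.4 CPM against 46), NAPRT in library 3 (2.68 CPM against 0.912), GDF15 in library 3 (0.063 CPM against 0) and COL3A1 in library 3 (0.819 CPM against 0.692). In WT-vector cells in vehicle the library stood low for TRIB3 in library 1 (23 CPM against 25.1), RAB38 in library 2 (1.1 CPM against 1.99) and PHGDH in library 3 (379 CPM against 396). In WT-vector cells in vehicle the library stood high for SPARC in library 1 (24.1 CPM against 22.5), HOXA13 in library 3 (38.4 CPM against 35.9) and ASRGL1 in library 3 (28.6 CPM against 28.1). For GDF15, whose level is near 0, the gap is a few counts.

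The difference between the lines itself changed with antimycin in 58 of the genes named, by edgeR's test of the interaction. The values that follow are the log2 difference under antimycin minus that in vehicle. Among ISR genes and their partners it was -1.26 for CHAC1, -0.28 for ATF4, -0.22 for ATF3, -0.52 for CTH, -0.44 for DDIT4, -0.48 for SLC7A11, -0.97 for ADM2, -0.41 for PCK2, -0.59 for JDP2, -0.41 for SESN2, -0.88 for ULBP1, -0.60 for BBC3 and -1.26 for DDR2. In serine synthesis and related enzymes it was -0.29 for PSAT1, -0.33 for PSPH, -0.17 for PHGDH, -0.18 for ALDH1L2 and -0.33 for GPT2. DDR2 was taken into the ISR list from earlier results of these data.

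Transporters stood at -0.71 for SLC6A9, -0.25 for SLC3A2, -0.33 for SLC43A1, -0.24 for SLC7A1, -0.20 for SLC7A5, -0.19 for SLC38A1, -0.20 for SLC1A5 and -0.30 for SLC1A4. The tRNA synthetases stood at -0.19 for GARS1, -0.15 for AARS1 and -0.17 for SARS1. The ER genes went the other way, with 0.30 for HERPUD1, 0.34 for SDF2L1, 0.20 for HSPA5, 0.45 for DNAJB9, 0.25 for CRELD2 and 0.26 for MANF.

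Other negative values were -0.25 for JUN, -0.51 for CCN2, -0.33 for CCN1, -0.25 for HMOX1, -0.14 for SQSTM1, -0.49 for HOXB6, -1.09 for CRIP2, -0.72 for H2BC21, -0.44 for ADAMTS1, -1.02 for ASNSP1, -0.73 for C17orf113 and -0.83 for PLPPR3. Other positive values were 0.39 for HOXA13, 0.19 for MSMO1, 0.19 for AURKA, 0.61 for DCHS1, 0.58 for FOXO4, 0.53 for MYB, 1.33 for SLC39A7, 0.46 for HDAC4, 0.80 for RGS20, 0.78 for SHISA4 and 0.67 for TEKT4P2. Their adjusted p-values ranged up to 0.0466, for SHISA4.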

How the results depend on the processing

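With a 2-fold minimum, 601 genes were called under antimycin (262 higher, 339 lower), 572 in vehicle (273 and 299) and 15 by the interaction (4 more positive, 11 more negative), with 6 ISR and 0 ER genes lower and 2 ISR and 0 ER genes with a called interaction. More positive interactions numbered 86 with no filter on low counts and 75 without the libraries labelled as knockout with SLC25A12-WT, and the DESeq2 Wald test gave 196 more negative ones among 345. The share of more positive calls was 38.4% with no filter and 30.9% without those libraries. The cause was not tested. Leaving out each library gave 7588 to 7685 calls under antimycin (3454 to 3499 higher, 4117 to 4186 lower), 7568 to 7609 in vehicle (3484 to 3580 and 4029 to 4113), and 193 to 234 interactions. Of these 77 to 121 were more positive, over 1.5 times fewer without KO-vector antimycin 1, 2 or 4, WT-vector antimycin 1 or 4, KO-vector vehicle 3, or WT-vector vehicle 1 or 3, and 109 to 138 were more negative. ISR genes lower stayed at 35 to 37 and ER genes at 21 to 25, with 22 to 26 ISR and 9 to 11 ER interactions. With the replicate number as a block, 7927 genes were called under antimycin (3860 and 4067), 7916 in vehicle and 270 interactions. Same-numbered antimycin libraries had residual correlations of 0.022, -0.102, 0.051 and 0.032, and 1 of 4 matched its own number best. No pairing by number was seen, and a check on so few libraries cannot exclude one. Of 168 named genes, 155 kept their call and direction under antimycin in all 15 settings run per gene. Of the rest, 7 lost their call in at least 1 setting (ATF5, CRIP2, GPD1, KARS1, NDUFA3, OSGIN1, SLC1A4), 2 gained one (ASNSP1, NDUFA11), and 4 that were not called changed sign. HDAC4 reached 0.0017 with no filter, 0.0018 with halved counts and -0.0729 to 0.0414 with a library left out. In the same way RGS20 ran from -0.0338 to 0.1088, SESN2 from -0.007 to 0.0343 and TEKT4P2 from -0.0116 to 0.0979. Of the 58 named interactions, 5 stayed called with a 2-fold minimum, 55 to 58 in the other settings and 47 to 57 with a library left out, and 0 changed sign. SHISA4, TEKT4P2, MYB and CCN2 were lost most often. Depth limits genes near 1 CPM, and counts were even more often than odd (55.1% to 58.7% of those from 1 to 20). Squared differences of moderate counts between libraries of a group were on average 1.95 to 2.19 times those of pure sampling noise. The cause of either was not tested.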

Other observations

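Interferon genes were higher in 8 of 16 cases and lower in 1, with a median log2 fold change of 0.23. OAS3, a sensor of double-stranded RNA, was higher under antimycin (12.4 ± 1.07 against 8.06 ± 1.38 CPM, 0.62 ± 0.09) and in vehicle (0.64). Of 23 lysosome and autophagy genes, 6 were higher and 2 lower. Heat shock genes were lower in 9 of 21 cases and higher in 4. HSPB8, a small heat shock protein (-1.05 ± 0.18), HSPA1A, the inducible HSP70 (-0.47 ± 0.10), and DNAJB1, its co-chaperone on the short arm of chromosome 19 (-0.57 ± 0.03), were lower. Of 23 genes of the citric acid cycle, 9 were higher and 6 lower, and of 21 genes of purine and pyrimidine synthesis, 12 were lower and 3 higher. Among 25 death genes, 8 were lower and 6 higher, and BMF, a BH3-only protein, was higher (0.64 ± 0.09). Over all tested genes 24.5% were lower and 23.5% higher, so the death gene counts and the higher lysosome count are near the background.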
